A study of Mus musculus with 3 samples.

Results

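The genes described here encode the interleukins, the colony-stimulating factors, leukemia inhibitory factor (LIF), oncostatin M (OSM) and the receptors of these cytokines. They were chosen by name alone, as every protein-coding mouse gene whose symbol begins with Il or Csf and a digit, together with Lif, Lifr, Osm and Osmr. This gave 94 genes of the 52661 in the deposited tables, of which 44 encode ligands, 48 encode receptor chains and 2 (Il18bp and Il4i1) encode neither. The data are bulk RNA sequencing of 3 sorted mouse mammary populations, with 1 library each and therefore no replicate error. The label of every population is a PROCR-positive mammary epithelial cell sorted as EpCAM+ with a high level of CD49f, which is integrin alpha 6. The CD36+ library holds cells positive for CD36 and negative for podoplanin (PDPN), titled Cdh5 positive. The double-negative library holds cells negative for both proteins, also titled Cdh5 positive, and the PDPN+ library holds cells that are CD36 negative and PDPN positive, titled Cdh5 negative. The strain, the age, the number of mice and the number of cells behind a library were not among the labels used here.

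Cytokines of these families are secreted proteins that act through cell surface receptors built from 1 or more chains. Most interleukins and the colony-stimulating factors 2 and 3 bind receptors that lack an enzyme of their own and signal through Janus kinases (JAK) and STAT transcription factors, whereas the interleukin-1 and interleukin-17 families signal through adaptor proteins towards NF-kappa B, and colony-stimulating factor 1 binds a receptor tyrosine kinase. Several receptors share a chain, such as gp130 (Il6st) in the interleukin-6 family, the common gamma chain (Il2rg) and the common beta chain (Csf2rb). Endothelial cells of venules answer inflammatory cytokines by making G-CSF (Csf3) and interleukin-6, and in the mammary gland LIF acts through STAT3 when the gland involutes after lactation.

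The labels were set against marker genes first. Total counts were 67675778 in CD36+ cells, 51138993 in double-negative cells and 63871266 in PDPN+ cells. Levels are CPM, counts scaled to a common library size, after TMM scaling. The 8 endothelial markers summed to 5165 CPM in CD36+ cells, 3628 CPM in double-negative cells and 122 CPM in PDPN+ cells, and the 7 basal epithelial markers to 65.9, 229 and 5597 CPM in the same order. The label of an epithelial cell was therefore matched by basal markers in PDPN+ cells, while endothelial markers led in the other 2 libraries. Leukocyte markers were low throughout. The 4 pan-leukocyte markers summed to 19.8, 5.07 and 0.811 CPM, with Cd53 alone at 12.8 CPM in CD36+ cells, Laptm5 at 0 counts in CD36+ cells, Cd53 at 0 in double-negative cells and both Coro1a and Cd53 at 0 in PDPN+ cells. The T and NK cell markers (0.203, 8.66 and 1.05 CPM), B cell markers (7.48, 8.14 and 1.501 CPM), macrophage markers (15.8, 15.9 and 8.03 CPM), neutrophil markers (0.405, 0.0990 and 0.297 CPM) and mast cell markers (0.0169, 0 and 0.0135 CPM) were at similarly low sums, with Nkg7 and S100a9 at 0 in every library. The larger of these sums came mostly from few members. Fcgr1 stood at 15.8 CPM, Ms4a1 at 7.96 CPM and Cd3g at 6.14 CPM in double-negative cells. Lyz2 stood at 9.22 CPM and Cd79a at 4.93 CPM in CD36+ cells, and Cd68 at 5.26 CPM in PDPN+ cells. Luminal epithelial markers summed to 359, 289.6 and 635 CPM, fibroblast markers to 110.4, 60.6 and 561 CPM and pericyte markers to 258, 164 and 65.3 CPM. The members of these lists did not all follow the sums. Of the basal markers, Krt5 (18.4 and 3.03 CPM) and Lama3 (6.93 and 0.436 CPM) were higher in CD36+ than in double-negative cells. Krt14, Trp63, Krt17 and Oxtr were lower in CD36+ cells, and Acta2 slightly so. Krt8 and Krt18 carried the luminal sum, while Krt19, Esr1 and Csn3 were higher in CD36+ than in PDPN+ cells, and Rgs5 carried the pericyte sum, at 241, 164 and 51.9 CPM, while Kcnj8 and Notch3 were higher in PDPN+ cells. These marker sums move with the differences between the libraries given here, and their part in them was not tested. In bulk samples, fewer cells of a type and less RNA per cell cannot be told apart.

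Promoter sequences are shown for 3 ligand genes that divide between the libraries, Il6 on one side and Lif and Il11 on the other. They are the 250 bases before the RefSeq start of the gene on GRCm38.p6, written 5′ to 3′ on the gene's strand, with capitals for matches to 3 motifs, namely TTCNNNGAA (STAT), TGANTCA (AP-1) and the NF-kappa B motif of 10 bases. The windows lie at chr5:30012864-30013113 (plus strand, Il6), chr11:4257318-4257567 (plus strand, Lif) and chr7:4778142-4778391 (minus strand, the inner of 2 Il11 starts, shown because the other start has no match to the 3 motifs).
Il6: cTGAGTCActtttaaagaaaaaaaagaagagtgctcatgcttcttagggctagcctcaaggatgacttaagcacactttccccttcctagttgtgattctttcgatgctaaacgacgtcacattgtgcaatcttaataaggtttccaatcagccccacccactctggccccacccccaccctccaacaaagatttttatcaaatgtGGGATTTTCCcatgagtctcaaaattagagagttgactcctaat
Lif: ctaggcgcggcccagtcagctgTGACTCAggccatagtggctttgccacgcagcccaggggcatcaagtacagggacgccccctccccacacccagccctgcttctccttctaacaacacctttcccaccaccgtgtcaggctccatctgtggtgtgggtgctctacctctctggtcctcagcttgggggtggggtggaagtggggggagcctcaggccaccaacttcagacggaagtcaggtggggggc
Il11: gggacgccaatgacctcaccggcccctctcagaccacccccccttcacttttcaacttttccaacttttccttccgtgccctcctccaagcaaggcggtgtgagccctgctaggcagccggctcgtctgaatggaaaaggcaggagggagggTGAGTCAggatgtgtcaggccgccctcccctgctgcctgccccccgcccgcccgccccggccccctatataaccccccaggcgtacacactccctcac
Each of the 3 windows holds 1 AP-1 match, which begins 249 bases before the start in Il6, 228 in Lif and 98 in Il11. Il6 also holds the NF-kappa B motif, 44 bases before the start, and none of the 3 holds the STAT motif. Both strands were searched. Over all 32851 windows of this length, 6.75% held the AP-1 motif, 3.90% the NF-kappa B motif and 7.02% the STAT motif. RefSeq windows matched 73 of the 94 genes, with 89 starts, and 16.9% of these starts held the AP-1 motif, 6.74% the NF-kappa B motif and 10.1% the STAT motif. The ETS motif GGAAG and the E-box CANNTG were in 64.1% and 66.2% of all windows and in 67.4% and 79.8% of the members' windows. None of the capitals overlaps another motif of the search. A match describes letters in a window and is not a bound site.

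Of the 94 genes, 33 reached 10 CPM in at least 1 library, 21 peaked between 1 and 10 CPM and 40 stayed below 1 CPM in every library. Of the 44 ligands, 12 reached 10 CPM, and of the 48 receptor chains, 19 did. In CD36+ cells 5 ligands and 15 receptor chains stood at 10 CPM or more, in double-negative cells 7 and 11, and in PDPN+ cells 10 and 14. Of all 21786 coding genes, 6898, 6858 and 7365 did so in the same order. The deposited TPM values, which correct for transcript length and allow levels of different genes to be compared, summed over the ligands to 10275 in CD36+ cells, 6280 in double-negative cells and 693 in PDPN+ cells. Nearly all of the first 2 sums came from Csf3 and Il6. Over the receptor chains the TPM summed to 1898, 2395 and 461.

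**Figure D1:**
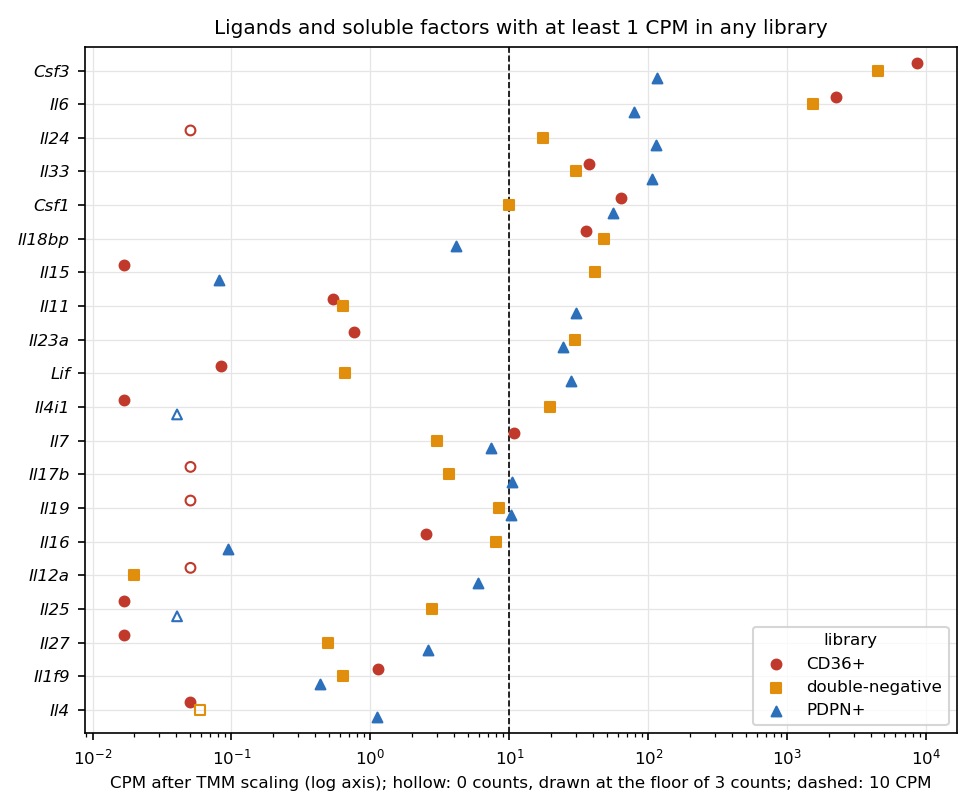
Level of each ligand, and of Il18bp and Il4i1, that reached 1 CPM in any library, as CPM after TMM scaling on a log axis, with 1 point per library (circle CD36+, square double-negative, triangle PDPN+). Hollow points mark 0 counts and are drawn at the floor of 3 counts, which lies to the right of a point with 1 count. Csf3 and Il6 are the 2 ligands far above the others, at 8621 and 2233 CPM in CD36+ cells, and Il24, Il11 and Lif are highest in PDPN+ cells.

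A gene was called apart between 2 libraries where its log2 ratio, with a prior count of 2, reached a 4-fold difference with 10 CPM or more on the higher side. With 1 library per population this is a rule of size and not a test. Between CD36+ and PDPN+ libraries, 10 of 30 measured members were apart and higher in CD36+ cells, against a background of 14.8% of 8685 coding genes, and 9 were lower, against 17.8%. Between double-negative and PDPN+ libraries, 13 of 30 were higher in double-negative cells (background 14.1% of 8693 genes) and 9 lower (19.8%). Between CD36+ and double-negative libraries, 4 of 27 were higher in CD36+ cells (background 12.3% of 8128 genes) and 5 lower (11.0%). Members were thus apart in larger shares than coding genes at large in both comparisons with PDPN+ cells, and the 3 comparisons share libraries. With the minimum set at 1 CPM the counts over PDPN+ cells were 15 higher and 14 lower of 50 for CD36+ cells, beside backgrounds of 16.2% and 23.0%, and 18 higher and 16 lower of 51 for double-negative cells, beside 15.2% and 25.2%. Between CD36+ and double-negative libraries they were 7 higher and 9 lower of 45, beside 17.5% and 15.1%.

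Ligands and receptor chains were also counted apart. Of 11 ligands measured between CD36+ and PDPN+ libraries, 2 were higher in CD36+ cells (Csf3 and Il6) and 6 lower (Il24, Il11, Lif, Il23a, Il19 and Il17b), with a median log2 ratio of -4.93 beside -0.05 for all coding genes. Of 18 receptor chains, 7 were higher and 3 lower, with a median of 0.73. Between double-negative and PDPN+ libraries 3 of 11 ligands were higher and 4 lower, with a median of -1.51, and 8 of 17 receptor chains were higher and 5 lower, with a median of 1.11, beside -0.18 for all coding genes. Between CD36+ and double-negative libraries 1 of 8 ligands was higher and 3 lower, with a median of 0.43, and 3 of 17 receptor chains were higher and 1 lower, with a median of 0.37, beside 0.14. The ligand median of this comparison turned to -1.65, over 13 ligands, with the minimum at 1 CPM, beside 0.11 for all coding genes. The other ligand medians at that minimum were -4.36 over 16 ligands for CD36+ over PDPN+ cells and -1.51 over 17 for double-negative over PDPN+ cells. Receptor chain medians there fell to 0.49 over 33 chains and 0.32 over 32 in the same order, beside -0.13 and -0.23 for all coding genes. For CD36+ over double-negative cells the receptor chain median was 0.35 over 30 chains. The difference between ligands and receptor chains was not tested.

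**Figure D2:**
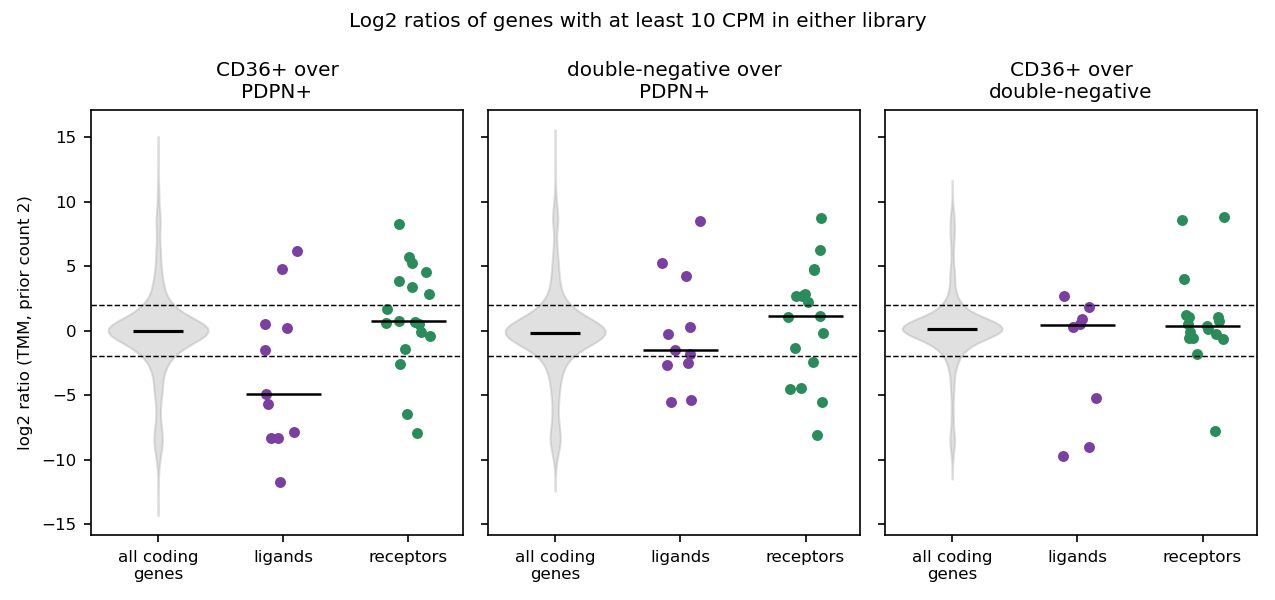
Log2 ratio of library pairs (CD36+ over PDPN+, double-negative over PDPN+, CD36+ over double-negative) for genes with at least 10 CPM in either library. The grey shape gives all coding genes, points give the ligands and the receptor chains, horizontal bars the medians and dashed lines a 4-fold difference. Ligands lie on both sides in the first panel, with a median of -4.93, and receptor chains have a median of 0.73.

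Csf3 encodes G-CSF, the growth factor of neutrophil production, and lies on chromosome 11 (98701263 to 98703629, plus strand, mm10). It stood at 8621 CPM in CD36+ cells, 4493 CPM in double-negative cells and 116 CPM in PDPN+ cells. By CPM it ranked 4 among all coding genes of CD36+ cells, 9 in double-negative cells and 1597 in PDPN+ cells, and by TPM 8, 16 and 1042. CD36+ cells were 74.2-fold above PDPN+ cells (95% counting interval 72.7 to 75.9) and double-negative cells 38.7-fold (37.9 to 39.5). Between CD36+ and double-negative libraries the ratio was 1.92 (1.91 to 1.93). Its receptor Csf3r, which myeloid cells carry, was low and close to level across the libraries, at 4.61, 5.68 and 3.65 CPM in the CD36+, double-negative and PDPN+ libraries. In TPM the ligand stood at 7754, 4401 and 146 and the receptor at 1.71, 2.31 and 1.89.

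Il6 encodes interleukin-6, an inducer of the acute phase response, and lies on chromosome 5 (30013114 to 30019981, plus strand). Its level was 2233 CPM in CD36+ cells, 1522 CPM in double-negative cells and 78.8 CPM in PDPN+ cells. It ranked 42, 60 and 2296 among coding genes in the same order. The ratio to PDPN+ cells were 28.3 for CD36+ cells (27.6 to 29.1) and 19.3 for double-negative cells (18.8 to 19.8). Csf3 and Il6 were thus the 2 abundant ligands of the libraries led by endothelial markers, and each was also present in PDPN+ cells. So were venous endothelial markers, of which 5 summed to 37483 CPM in CD36+, 28283 CPM in double-negative and 369 CPM in PDPN+ cells. Their part in the Csf3 and Il6 of PDPN+ cells was not tested.

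Il6 acts through its own receptor chain Il6ra together with gp130, encoded by Il6st. The 2 libraries with more Il6 had less Il6ra, which stood at 4.59 CPM in CD36+ cells, 1.13 CPM in double-negative cells and 27.2 CPM in PDPN+ cells. PDPN+ cells were 5.91-fold above CD36+ cells for Il6ra (5.20 to 6.73) and 24.1-fold above double-negative cells (18.5 to 31.9), and by TPM these folds were 14.5 and 54.1. Il6st was lowest in PDPN+ cells, at 1330.4 CPM in CD36+ cells, 1184 CPM in double-negative cells and 182 CPM in PDPN+ cells. That is 7.29-fold (7.16 to 7.43) and 6.49-fold (6.37 to 6.61) above PDPN+ cells. In TPM, Il6ra stood at 0.598, 0.160 and 8.68 beside 193, 170.3 and 33.2 for Il6st.

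Of the other gp130 ligands, Lif, Il11 and Il27 were highest in PDPN+ cells. Lif stood at 0.0845 CPM in CD36+ cells, 0.654 CPM in double-negative cells and 27.8 CPM in PDPN+ cells, which was 330-fold (141 to 1016) and 42.6-fold (30.2 to 62.1) above the other 2. Il11, whose product acts on megakaryocytes and stromal cells, stood at 0.541, 0.634 and 30.2 CPM, and PDPN+ cells were 55.9-fold above CD36+ cells (39.5 to 82.0) and 47.7-fold above double-negative cells (33.7 to 69.9). Il27, a subunit of interleukin-27, was lower in level but had the same order, with 1 count in CD36+ cells, 0.495 CPM in double-negative cells and 2.60 CPM in PDPN+ cells. Its partner subunit gene Ebi3 had 0 counts in every library. Osm, a product of activated leukocytes, had 1 count in CD36+ cells and 0 in the other 2.

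The receptor chains for LIF and OSM were abundant in all 3 libraries. Lifr stood at 1179 CPM in CD36+ cells, 1741 CPM in double-negative cells and 364 CPM in PDPN+ cells. Double-negative cells were 4.79-fold above PDPN+ cells (4.73 to 4.86), and CD36+ cells 3.24-fold (3.20 to 3.29). Osmr, the oncostatin M receptor chain, was closer to level at 496, 763 and 354 CPM. By TPM CD36+ cells were slightly lower than PDPN+ cells for Osmr, at 116 beside 120.2. PDPN+ cells were therefore the population in which Lif and its 2 receptor chains, Lifr and Il6st, all passed 10 CPM.

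Il11ra1, the interleukin-11 receptor chain, had 1 count in CD36+ cells and stood at 10.9 CPM in double-negative cells and 12.4 CPM in PDPN+ cells. This gene has a near-identical copy, Il11ra2, which had at most 2 counts in any library, and it overlaps Galt on the same strand and coding genes on the other strand, among them Dctn3, so its reads may be shared. Galt had 0 counts in CD36+ cells, 723 in double-negative cells and 302 in PDPN+ cells, and its part in the level of Il11ra1 was not tested. Il27ra stood at 6.62 CPM in CD36+ cells, had 1 count in double-negative cells and stood at 3.85 CPM in PDPN+ cells. Il31ra, which pairs with Osmr, peaked at 2.99 CPM in double-negative cells, and Il31 had at most 1 count.

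**Figure D3:**
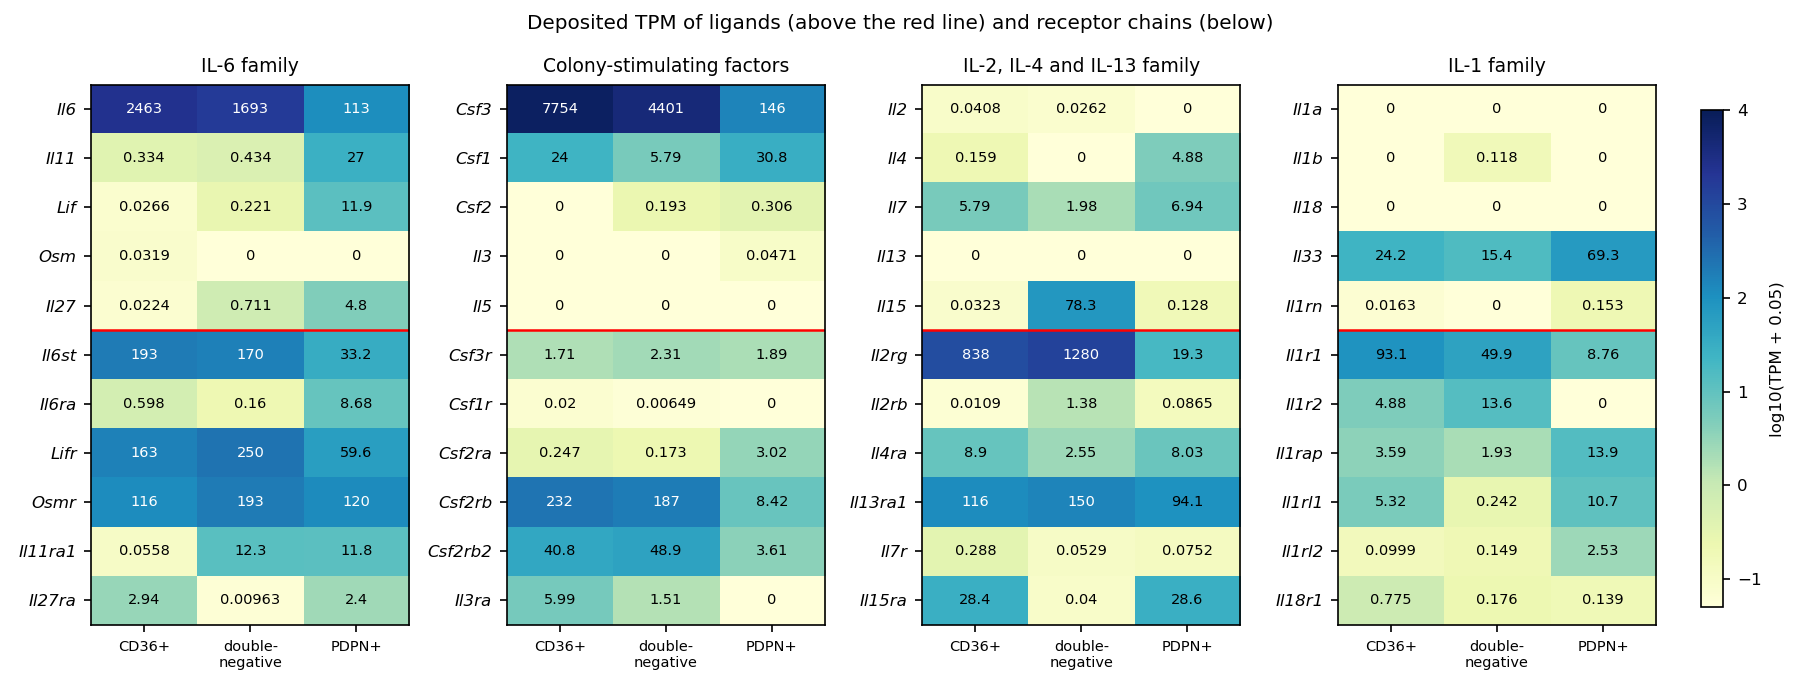
Deposited TPM of ligand genes (above the red line) and receptor chains (below it) in 4 cytokine families, with 1 column per library and colour by log10(TPM + 0.05). Il6 is high where Il6ra is low, with 2463 and 0.598 TPM in CD36+ cells, and Lif and Il11 are highest in PDPN+ cells.

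Among the receptor chains of the colony-stimulating factors, the common beta chain was abundant in the CD36+ and double-negative libraries, while its partner chains were low. Csf2rb, shared by the receptors of GM-CSF, interleukin-3 and interleukin-5, lies on chromosome 15 (78325752 to 78353847, plus strand). It stood at 944 CPM in CD36+ cells, 671 CPM in double-negative cells and 24.4 CPM in PDPN+ cells, so that CD36+ cells were 38.7-fold (37.0 to 40.6) and double-negative cells 27.5-fold (26.3 to 28.9) above PDPN+ cells. Csf2rb2, the interleukin-3-specific beta chain of the mouse and a close paralog next to it, stood at 169, 185 and 7.18 CPM, and reads of the 2 genes may be divided wrongly between them. By TPM the 23.5-fold ratio of Csf2rb2 between CD36+ and PDPN+ libraries was 11.3.

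The alpha chains that give these receptors their ligand were low. Csf2ra, for GM-CSF, stood at 0.372 CPM in CD36+ cells, 0.238 CPM in double-negative cells and 3.26 CPM in PDPN+ cells, highest where the beta chain was lowest. Il3ra, for interleukin-3, stood at 5.88 CPM in CD36+ cells and 0.911 CPM in double-negative cells, with 0 counts in PDPN+ cells, and CD36+ cells were 6.45-fold above double-negative cells (4.73 to 8.98), or 3.96-fold by TPM. Il5ra peaked at 1.76 CPM, in PDPN+ cells. The ligands were absent or nearly so, with at most 9 counts for Csf2, at most 1 for Il3 and 0 in every library for Il5.

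Csf1 encodes the growth factor of macrophages. It was lowest in double-negative cells, with 63.7 CPM in CD36+ cells, 10.002 CPM in double-negative cells and 56.0 CPM in PDPN+ cells. CD36+ cells were 6.37-fold above double-negative cells (5.80 to 7.002), the one ligand apart in that direction, and PDPN+ cells were 5.59-fold above them (5.10 to 6.15). By TPM the order of the CD36+ and PDPN+ libraries turned, at 24.0 and 30.8. By TPM the ratio of CD36+ to double-negative cells was 4.14. Its receptor Csf1r, a marker of macrophages, had 5 counts in CD36+ cells, 1 in double-negative cells and 0 in PDPN+ cells, and Il34, the other ligand of Csf1r, had at most 1 count.

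Il2rg encodes the common gamma chain, known from lymphocytes, and lies on the X chromosome (101264378 to 101268255, minus strand). It stood at 957 CPM in CD36+ cells, 1402 CPM in double-negative cells and 18.4 CPM in PDPN+ cells. These are 51.9-fold (49.2 to 54.8) and 76.1-fold (72.1 to 80.3) above PDPN+ cells, and Il2rg ranked 162 and 68 among coding genes of the CD36+ and double-negative libraries. The pan-leukocyte marker Ptprc stood at 1.10, 0.970 and 0.798 CPM in the CD36+, double-negative and PDPN+ libraries.

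In CD36+ and double-negative cells, the chains that pair with the common gamma chain were far below it. In PDPN+ cells Il4ra and Il15ra were close to it in CPM, while Il2rb, Il7r, Il2ra, Il9r and Il21r stayed well below it. Il4ra, for interleukin-4 and interleukin-13, stood at 17.4 CPM in CD36+ cells, 7.43 CPM in double-negative cells and 19.2 CPM in PDPN+ cells. Il2rb peaked at 1.98 CPM in double-negative cells, with 2 counts in CD36+ cells and 0.230 CPM in PDPN+ cells. Of Il7r, Il2ra, Il9r and Il21r, the highest value was 3.21 CPM, for Il9r in double-negative cells. In TPM, Il2rg stood at 838, 1280.1 and 19.3, beside 8.90, 2.55 and 8.03 for Il4ra and 28.4, 0.0400 and 28.6 for Il15ra. Il13ra1, which joins Il4ra in the receptor that non-hematopoietic cells use, was abundant throughout, at 371, 438 and 215 CPM. Il13ra2, a decoy receptor of interleukin-13, stood at 10.3 CPM in CD36+ cells and 7.98 CPM in double-negative cells and had 0 counts in PDPN+ cells, which makes the first at least 255-fold and the second at least 197-fold higher against a floor of 3 counts.

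Of the ligands of the gamma chain receptors, Il7, Il15 and Il4 passed 1 CPM. Il15 encodes a growth factor of natural killer cells that is shown on the surface by Il15ra. It had 1 count in CD36+ cells, stood at 41.0 CPM in double-negative cells and had 6 counts in PDPN+ cells. Il15ra was the reverse, at 32.3 CPM in CD36+ cells, 2 counts in double-negative cells and 20.2 CPM in PDPN+ cells. No library thus held both at 10 CPM. Il7, a lymphocyte survival factor, stood at 10.7, 3.01 and 7.40 CPM, with CD36+ cells 3.57-fold above double-negative cells (2.99 to 4.29). Il4 peaked at 1.12 CPM in PDPN+ cells, and Il13 had 0 counts in every library.

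In the interleukin-1 family, the ligand Il33 was present in all 3 libraries and highest in PDPN+ cells. Il33, an alarmin kept in the nucleus of endothelial and epithelial cells, lies on chromosome 19 (29925114 to 29960718, plus strand). Its level was 37.1 CPM in CD36+ cells, 30.006 CPM in double-negative cells and 106 CPM in PDPN+ cells. PDPN+ cells were 2.84-fold (2.71 to 2.98) and 3.52-fold (3.33 to 3.72) above the other 2, inside the 4-fold limit, although by TPM the second ratio was 4.50. Il1a and Il18 had 0 counts in every library, Il1b had 1 count in double-negative cells and 0 elsewhere, and Il1rn, the receptor antagonist, at most 13.

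Il1r1, the signalling receptor of interleukin-1, stood at 393 CPM in CD36+ cells, 192 CPM in double-negative cells and 26.5 CPM in PDPN+ cells. It was 14.8-fold (14.2 to 15.5) and 7.26-fold (6.92 to 7.63) above PDPN+ cells. Its accessory chain Il1rap was highest in PDPN+ cells, at 14.1, 6.91 and 38.2 CPM, with PDPN+ cells 5.53-fold above double-negative cells (4.94 to 6.19). Il1r2, a decoy receptor of interleukin-1, stood at 3.85 CPM in CD36+ cells and 13.9 CPM in double-negative cells and had 0 counts in PDPN+ cells, so that double-negative cells were at least 343-fold higher.

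Il1rl1, which encodes the interleukin-33 receptor ST2, was low in double-negative cells. Its level was 13.0 CPM in CD36+ cells, 0.792 CPM in double-negative cells and 17.6 CPM in PDPN+ cells, and CD36+ cells were 16.4-fold above double-negative cells (11.9 to 23.2). PDPN+ cells therefore held the highest values of Il33, Il1rl1 and Il1rap together. Il1rl2, the receptor of the interleukin-36 ligands, peaked there as well at 6.08 CPM, while its ligands Il1f6, Il1f8 and Il1f9 peaked at 0, 1 count and 1.13 CPM. Il18bp, a secreted inhibitor of interleukin-18, stood at 35.6 CPM in CD36+ cells, 48.2 CPM in double-negative cells and 4.14 CPM in PDPN+ cells, that is 8.61-fold (7.64 to 9.74) and 11.6-fold (10.3 to 13.2) above PDPN+ cells, or 5.02-fold and 10.2-fold by TPM. It overlaps Numa1 on the other strand.

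**Figure D4:**
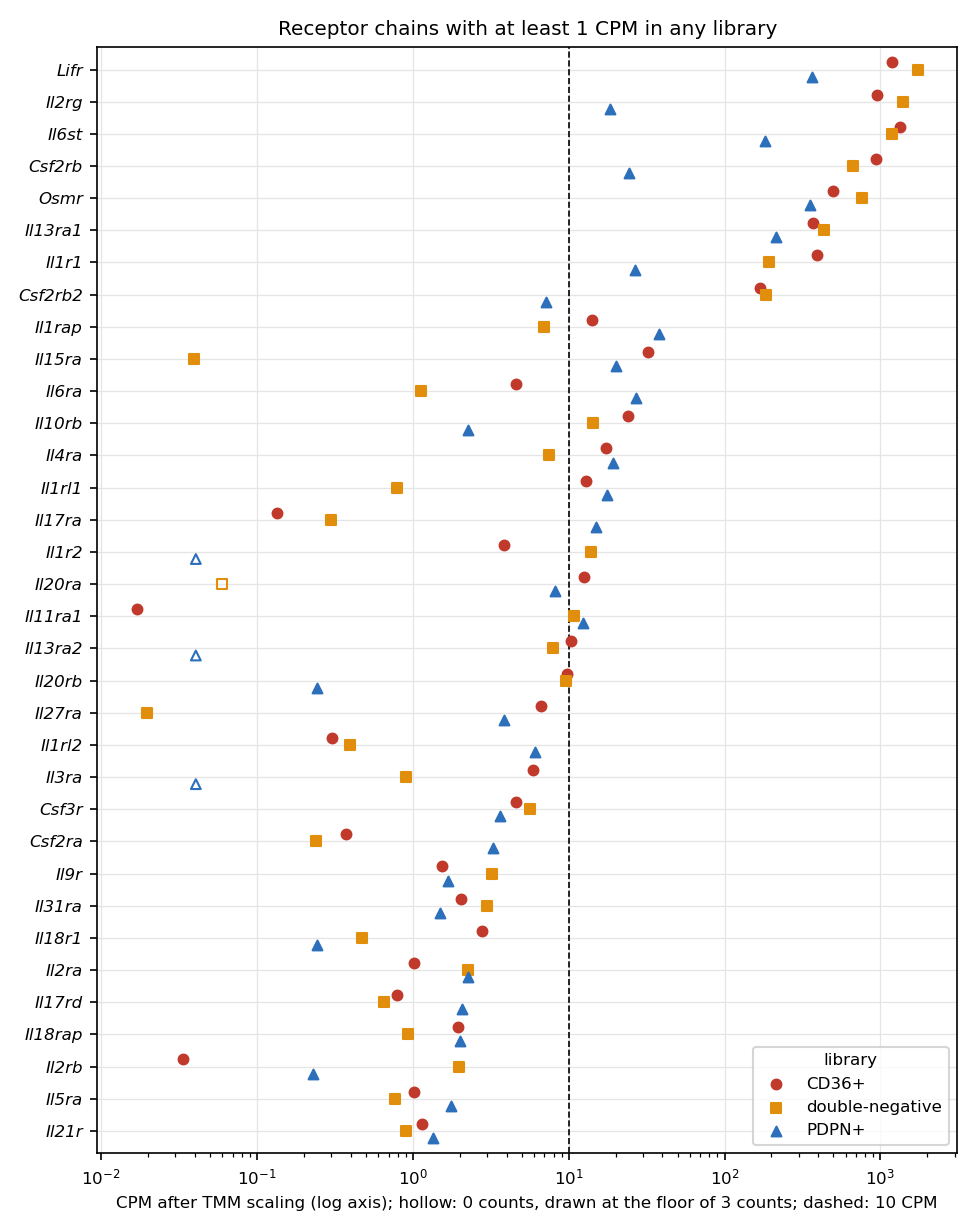
Level of each receptor chain that reached 1 CPM in any library, as CPM after TMM scaling on a log axis, with 1 point per library. Il2rg, Csf2rb, Il6st and Il1r1 are high in the CD36+ and double-negative libraries, at 957 and 1402 CPM for Il2rg, and Il6ra, Il1rap and Il17ra are highest in PDPN+ cells.

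Il24 was undetected in one library and abundant in another. It encodes an interleukin-10 family cytokine made by epithelial and immune cells and lies on chromosome 1 (130882074 to 130887454, minus strand). It had 0 counts in CD36+ cells and stood at 17.4 CPM in double-negative cells and 113 CPM in PDPN+ cells. PDPN+ cells were at least 2233-fold above CD36+ cells and 6.51-fold above double-negative cells (6.08 to 6.99). Its neighbour Il19 (chromosome 1, 130932656 to 130940115, minus strand) had the same order at lower levels, with 0 counts, 8.36 CPM and 10.2 CPM. Both act on receptors of Il20rb with Il20ra, and Il24 also on Il20rb with Il22ra1. No library held both Il24 at 10 CPM and both Il20 receptor chains at 1 CPM. Il20rb stood at 9.75 CPM in CD36+ cells, 9.57 CPM in double-negative cells and 0.243 CPM in PDPN+ cells, Il20ra at 12.6 CPM, 0 counts and 8.17 CPM, and Il22ra1 had 0 counts in every library. The shared chain Il10rb was on the other side from Il24, at 24.0, 14.4 and 2.24 CPM, while Il10 itself and Il22 had 0 counts in every library.

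Il23a, a subunit of interleukin-23, was level between 2 libraries and low in the third. It stood at 0.760 CPM in CD36+ cells, 29.6 CPM in double-negative cells and 24.2 CPM in PDPN+ cells. The subunit it needs, Il12b, had at most 2 counts in any library, and the receptor chains Il12rb1 and Il23r peaked at 0.828 CPM and 2 counts. Il12a peaked at 5.92 CPM in PDPN+ cells, with 0 counts in CD36+ cells and 1 in double-negative cells.

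Il17ra, the receptor chain shared in the interleukin-17 family, was highest in PDPN+ cells. It stood at 0.135 CPM in CD36+ cells, 0.297 CPM in double-negative cells and 14.9 CPM in PDPN+ cells, which was 111-fold (55.9 to 257) and 50.3-fold (30.4 to 90.2) above the other 2, or 203-fold and 68.1-fold by TPM. The ligand Il17b had 0 counts in CD36+ cells, 3.66 CPM in double-negative cells and 10.5 CPM in PDPN+ cells. Il25 peaked at 2.77 CPM in double-negative cells, Il17f at 0.456 CPM and Il17c at 7 counts, and Il17a and Il17d had 0 counts in every library. Il17rc and Il17rb peaked at 22 and 34 counts.

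Il18r1, a receptor chain of interleukin-18, stood at 2.77 CPM in CD36+ cells, 0.475 CPM in double-negative cells and 0.243 CPM in PDPN+ cells, that is 11.4-fold (6.98 to 19.7) higher in CD36+ than in PDPN+ cells, or 5.57-fold by TPM. Il4i1, a secreted amino acid oxidase, had 1 count in CD36+ cells, stood at 19.6 CPM in double-negative cells and had 0 counts in PDPN+ cells. It shares its strand with the overlapping Nup62. Il16, a chemoattractant of CD4 T cells, stood at 2.52, 7.94 and 0.0947 CPM, and overlaps Stard5 on the other strand. All-or-none values of this kind were not particular to these genes. Of 6898 coding genes with at least 10 CPM in CD36+ cells, 254 (3.68%) had at most 3 counts in double-negative cells, and of 6858 such genes in double-negative cells, 257 (3.75%) had at most 3 in CD36+ cells. Among the members these were Il15ra and Il20ra (2 of 21) and Il11ra1, Il15, Il24 and Il4i1 (4 of 20). Both are larger shares than those of all coding genes, though they rest on few members. With at most 3 counts in PDPN+ cells were 1 of 21 members at 10 CPM in CD36+ cells (3.22% of coding genes) and 2 of 20 in double-negative cells (3.59%). Of 24 members at 10 CPM in PDPN+ cells, 4 had at most 3 counts in CD36+ cells (5.80%) and 1 in double-negative cells (6.12%). The last share is below that of all coding genes.

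The genes that carry the signal were listed next to the receptors. Of 11 JAK and STAT genes, 8 were measured between CD36+ and PDPN+ libraries, and Jak2, Jak3, Stat2 and Stat5a were apart and higher in CD36+ cells, with 0 lower and a median log2 ratio of 1.86, beside 14.8% higher, 17.8% lower and a median of -0.05 over all coding genes. Jak2, a kinase used by the common beta chain, stood at 1086 CPM in CD36+ cells, 706 CPM in double-negative cells and 58.3 CPM in PDPN+ cells. Jak3, the kinase that binds the common gamma chain, stood at 24.5 CPM in CD36+ cells, with 5 counts in double-negative cells and 2 in PDPN+ cells. The library with the highest Il2rg thus held almost no Jak3. Stat3, the main target of gp130, was abundant in all 3 at 728, 421 and 426 CPM, and Jak1 likewise at 1290.4, 1067 and 508 CPM. Between double-negative and PDPN+ libraries 1 of 8 was higher, Jak2, and 0 lower (median 0.93), beside 14.1%, 19.8% and -0.18 over all coding genes. Between CD36+ and double-negative libraries Jak3 and Stat5b were higher and Stat4 lower, of 9 (median 0.79), beside 12.3%, 11.0% and 0.14. These shares and medians over all coding genes are the background of the lists that follow as well.

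Of 17 inhibitors of JAK signalling, 14 were measured between CD36+ and PDPN+ libraries, with Socs2 and Cish higher in CD36+ cells, Socs7 lower and a median of 0.02, which is close to the background of 14.8% higher and below that of 17.8% lower. Between double-negative and PDPN+ libraries Socs2 and Socs3 were higher and Socs7 lower, of 15 (median -0.23), and between CD36+ and double-negative libraries 0 of 14 were apart (median 0.18). Socs2, a feedback inhibitor of STAT5 signalling, stood at 556 CPM in CD36+ cells, 504 CPM in double-negative cells and 46.5 CPM in PDPN+ cells. Socs3, the feedback inhibitor of gp130, stood at 64.7, 96.5 and 22.1 CPM.

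Of 17 STAT3 and acute phase target genes, 15 were measured, and 5 were higher in CD36+ than in PDPN+ cells with 1 lower (median 1.55), beside 14.8%, 17.8% and -0.05 over all coding genes. In double-negative cells 6 were higher than in PDPN+ cells and 2 lower (median 0.98), beside 14.1%, 19.8% and -0.18, and between CD36+ and double-negative libraries 0 of 14 were apart (median 0.29). Lrg1, an acute phase glycoprotein of endothelium, stood at 2216 CPM in CD36+ cells, 2158 CPM in double-negative cells and 61.2 CPM in PDPN+ cells, and Pim1, a kinase gene induced by STATs, at 444, 305 and 72.4 CPM. Fgg, a fibrinogen chain, ran the other way, at 3.68 CPM in CD36+ cells, 3 counts in double-negative cells and 96.6 CPM in PDPN+ cells.

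**Figure D5:**
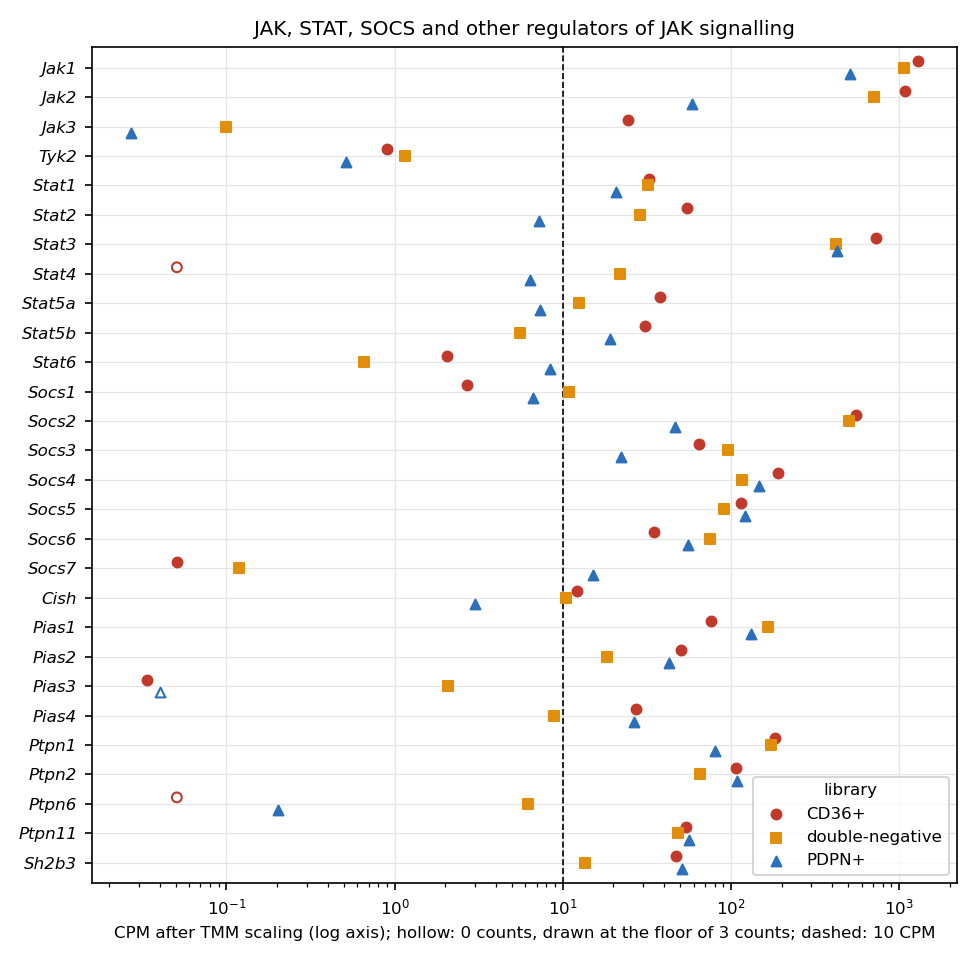
Level of each JAK, STAT, SOCS, PIAS and phosphatase gene of the 2 signalling lists, as CPM after TMM scaling on a log axis, with 1 point per library. Jak2 and Socs2 are lower in PDPN+ cells, at 58.3 and 46.5 CPM, and Jak3 reaches 10 CPM in CD36+ cells alone.

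Of 16 adaptor and kinase genes of the interleukin-1 and interleukin-17 receptors, 11 were measured. Irak3, an inhibitory kinase of the pathway, and Casp1 were higher in CD36+ than in PDPN+ cells, and Irak4, Traf6 and Tab2 were lower (median 0.11), beside backgrounds of 14.8% and 17.8%. In double-negative cells Irak3 and Casp1 were higher than in PDPN+ cells and Tab2 lower (median -0.19). Between CD36+ and double-negative libraries, Myd88 was higher and Irak2 and Map3k7 lower (median -0.22). Irak3 stood at 58.9 CPM in CD36+ cells and 15.2 CPM in double-negative cells and had 1 count in PDPN+ cells, and Traf6, the ubiquitin ligase shared by both receptor families, stood at 9.58, 30.6 and 58.1 CPM.

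Of 23 other cytokines and receptors of related classes, 5 were measured between CD36+ and PDPN+ libraries. Kit and the leptin receptor gene Lepr were higher in CD36+ cells and 0 were lower (median 1.77). Tslp, Kit and Lepr were higher in double-negative than in PDPN+ cells, with 0 of 6 lower (median 2.44), and Prlr was higher and Tslp lower in CD36+ than in double-negative cells (6 measured, median 0.43). Lepr stood at 226 CPM in CD36+ cells, 166 CPM in double-negative cells and 0.216 CPM in PDPN+ cells. Kitl, the ligand of Kit, was abundant in all, at 2639, 1977 and 979 CPM. The epithelial cytokine gene Tslp stood at 14.3 CPM in double-negative cells and had 0 counts in the other 2.

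Many members were low or not detected. Of the 44 ligands, 26 stayed below 1 CPM, 21 had at most 3 counts in every library and 11 had none at all. Between CD36+ and PDPN+ libraries, 50 of the 94 members reached 1 CPM in either, beside 12592 of 21786 coding genes. These shares are close, but the pooled members hide a difference between the classes. In the same comparison 16 of the 44 ligands and 33 of the 48 receptor chains reached 1 CPM. Ligands were thus below 1 CPM more often than coding genes at large, and receptor chains less often. The floor of 3 counts corresponds to 0.0507 CPM in CD36+ cells, 0.0594 CPM in double-negative cells and 0.0406 CPM in PDPN+ cells, and levels under it were not detectable at this depth. Of the 48 receptor chains 14 stayed below 1 CPM, among them Csf1r, Il10ra, Il7r and Il12rb1. Since each population had 1 library, none of the differences has a replicate check, and the intervals cover counting error only.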

How the data were processed

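Bulk RNA sequencing of 3 sorted mouse mammary populations was used, 1 library each. For every gene the deposited files hold an estimated count, which need not be whole, and a TPM value. The submitters' processing notes name Salmon 0.9.1 and mm10. The annotation release and the strand setting were not among the labels used here. Per the labels' protocols, RNA came from either of 2 isolation kits, and libraries from a low-input kit or a stranded kit with ribosomal RNA depletion. The labels do not say which kit or which Illumina instrument served which library. The kit and the population cannot be told apart.

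Estimated counts were rounded. Names and coordinates came from GENCODE M21 (52566 of 52661 identifiers matched without version, 50410 with it; at most 0.00811% of counts lay in unmatched genes). TMM factors came from edgeR 4.0.16 in R 4.3.3 over all genes, and log2 ratios used a prior count of 2. Folds are ratios of CPM with exact (Clopper-Pearson) 95% intervals, which cover counting error only, since reads without molecular identifiers may be PCR copies. A fold against 0 counts used a floor of 3 counts in that library. The calculation was tested on simulated data. Alternatives were total counts, upper quartile factors, DESeq2 1.42.0 size factors, deposited TPM (pseudocount 0.05), other minimum levels, a 2-fold limit and a prior count of 0.5. The deposited columns of effective length were not used as lengths, for reasons given with the closing observations. Python 3.11.15 with numpy 2.4.6, pandas 2.3.3, scipy 1.17.1 and matplotlib 3.10.9 was used.

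Named members are those with at least 10 CPM in any library, those at least 4-fold apart with at least 1 CPM, the shared chains and their partners. A further few were given as examples after their values were seen. The members and lists were chosen with earlier results of these data known.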

Additional observations from a re-analysis of the deposited data

How the results depend on the processing

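No paired analysis was possible because each population had 1 library. Total-count scaling moved the log2 ratio of a well counted gene by -0.40 for CD36+ over PDPN+ cells, by -0.23 for double-negative over PDPN+ cells and by -0.17 for CD36+ over double-negative cells. Upper quartile factors moved it by 0.27, 0.28 and -0.01. The prior count makes the shift of genes with few counts differ from these values. Under these scalings, DESeq2 size factors and a prior count of 0.5, each count of members apart stayed within 1.5 times its value, and no named member that was at least 4-fold apart with 1 CPM changed direction under them or by deposited TPM. Among the 54, 55 and 52 named members of the 3 comparisons, closer ones did turn. Total counts turned Csf1 and Csf3r in the first and Il20rb and Il6st in the third, and upper quartile factors turned Il21 and Il4ra in the first and Il11ra1, Il17f and Il7r in the second. TPM turned 7, 2 and 3 of them, among them Osmr, Il4ra and Il15ra in the first, and also turned Il31ra, Il17re, Il1rapl1 and Il21r, which are outside that count. Deposited TPM, with the minimum of 10 set on TPM, left 2 rather than 4 members higher in CD36+ than in double-negative cells. The members lost were Il1rl1 and Il20ra, at 5.32 and 7.26 TPM in CD36+ cells and so under that minimum. Their log2 ratios by TPM were 4.20 and 7.19, still beyond the 4-fold limit. A lower minimum admits more genes by construction. At 1 CPM the counts became 14 lower for CD36+ over PDPN+, 16 lower for double-negative over PDPN+, and 7 higher and 9 lower for CD36+ over double-negative. With no minimum they were 18 higher and 16 lower, 20 higher and 18 lower, and 10 higher and 13 lower in the same order. A 2-fold limit gave 8 higher for CD36+ over double-negative. The share of all coding genes was not calculated with no minimum or at the 2-fold limit. The counts at these settings therefore have no background and describe the setting only. Counts below 10 per library limit the folds of Lif, Il15 and Il15ra, whose intervals are wide.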

Other observations

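The ratio of counts to TPM gives the mean effective transcript length that the authors' TPM used. For Il6ra this was 8448 bases in CD36+ cells, 8506 in double-negative cells and 4833 in PDPN+ cells, beside annotated transcripts of 3343 and 8639 bases. For Lifr it was 7947, 8427 and 9416 bases, beside a longest annotated transcript of 9655 and a next one of 4143. For Il33 it was 1688, 2358 and 2353 bases, and for Il4ra 2148, 3526 and 3687. For Il1rl1, which is known to make a long membrane form and a shorter secreted form, it was 2686 bases in CD36+ cells and 2541 in PDPN+ cells, beside a longest annotated transcript of 5302. For Csf2rb2 it was 4549, 4561 and 3070 bases. These lengths rest on how Salmon divided reads among transcripts, with no replicate.

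The deposited effective lengths per gene were shorter than these. For Il6 the deposited value was 262 bases in CD36+ cells and the implied one 997, below the shortest annotated transcript (651 bases) in the first case. Over genes with several annotated transcripts and at least 100 counts, the implied length was a median 3.58, 3.57 and 3.61 times the deposited one in the CD36+, double-negative and PDPN+ libraries. Over genes with 1 annotated transcript it matched within 1% in 99.9% of genes or more. The TPM values themselves are not touched by this.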
